A study of Mus musculus with 10 samples.

Results

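The TNF superfamily is a family of trimeric ligands, most of them anchored in the cell membrane, and of the receptors that they bind. The genes described here were 3 ligands (Tnf, Tnfsf9 and Tnfsf10) and 7 receptors (Tnfrsf1a, Tnfrsf10b, Tnfrsf1b, Tnfrsf9, Tnfrsf12a, Ltbr and Cd40), 10 of the 38922 genes in the tables of liver RNA. They were chosen by name, with earlier results of these data known. Their Ensembl identifiers were matched to symbols with GENCODE mouse release 21 (GRCm38). Each symbol matched 1 identifier, and all 10 genes had enough counts to be tested. Tnf, Tnfsf9 and Tnfrsf9 had them only after the treatment, with fewer than 10 counts in every control.

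Livers were taken from wild-type male mice of the inbred strain C57BL/6N, aged 6 weeks. One group received an intraperitoneal injection of 0.5 µg of CD95-activating antibody (CD95-Ab) per g of body weight, and the control group received saline. CD95, also called Fas, is itself a death receptor of this family and is carried by hepatocytes, so that the antibody is a model of acute liver failure by hepatocyte apoptosis. All animals were killed 6 h after the injection, 5 in each group, and each mouse gave its own library from whole liver, made from 500 ng of RNA and read as pairs of 100 bp.

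Receptors of the family fall into classes by the inside of the molecule. Those with a death domain, such as Tnfrsf1a and Tnfrsf10b, can recruit Fadd and Casp8 and start apoptosis, or through Tradd, Ripk1 and Traf2 start NF-kB signalling. Many receptors without a death domain instead bind TRAF adaptors directly and signal to NF-kB and MAP kinases. In liver, Tnf from macrophages acts on hepatocytes both as a death signal and as a signal for survival and regeneration, and which of these prevails depends on NF-kB target genes that block the caspases.

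Values are given as CPM, which are the deposited expected counts of RSEM scaled to a TMM-adjusted total of 1000000 per mouse. Total counts were between 25965699 and 62097636 in saline-injected controls and between 27480796 and 44962196 after CD95-Ab, so that 3 counts correspond to between 0.0483 and 0.116 CPM before the adjustment. The livers matched their label, since the summed CPM of 8 hepatocyte markers was between 99587 and 125564 in saline-injected controls and between 43476 and 81313 after CD95-Ab. Of the 8 markers 4 were lower, beside 22.0% of all tested genes. The first principal component separated the groups and held 67.7% of the variance. The second held 9.84%, and saline replicate 5 and CD95-Ab replicate 4 stood apart from the others on it. Without these 2 mice, 7 members were still higher, beside 3636 of 13784 tested genes, and 6 members still passed both thresholds. Fold changes compare CD95-Ab with saline in the quasi-likelihood test of edgeR over all 13719 tested genes. The FDR is its p-value adjusted by the Benjamini-Hochberg method, and SE is the standard error of the log2 fold change.

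Of the 10 members, 7 were higher after CD95-Ab at an FDR of 0.05 or less, whereas 25.4% of all tested genes were called higher. These were Tnf, Tnfsf9, Tnfrsf1a, Tnfrsf10b, Tnfrsf9, Tnfrsf12a and Cd40. All of these but Tnfrsf1a, 6 members, also passed the fold threshold, a log2 fold change of at least 2, beside 6.59% of tested genes. Tnfsf10, Tnfrsf1b and Ltbr did not pass. No member was called lower, with 0 lower at an unadjusted p below 0.05 in edgeR and 0 called lower by DESeq2 or limma, whereas 22.0% of all tested genes were. For 7 members all values after CD95-Ab exceeded all values of the controls, against 18.6% of tested genes, and these were the members called higher. The median log2 fold change of the members was 2.32, and that of all tested genes was 0.01. Tnf, Tnfsf9 and Tnfrsf9 entered the test only through their counts after CD95-Ab. A call other than higher was thus unlikely for them from the start, and they are part of each of these counts. With at least 10 counts required in every mouse, 4 of 7 tested members were higher, beside 2962 of 12120 tested genes. The members were also chosen with earlier results of these data known, so the shares above describe the members and do not set them apart from other genes.

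**Figure D1:**
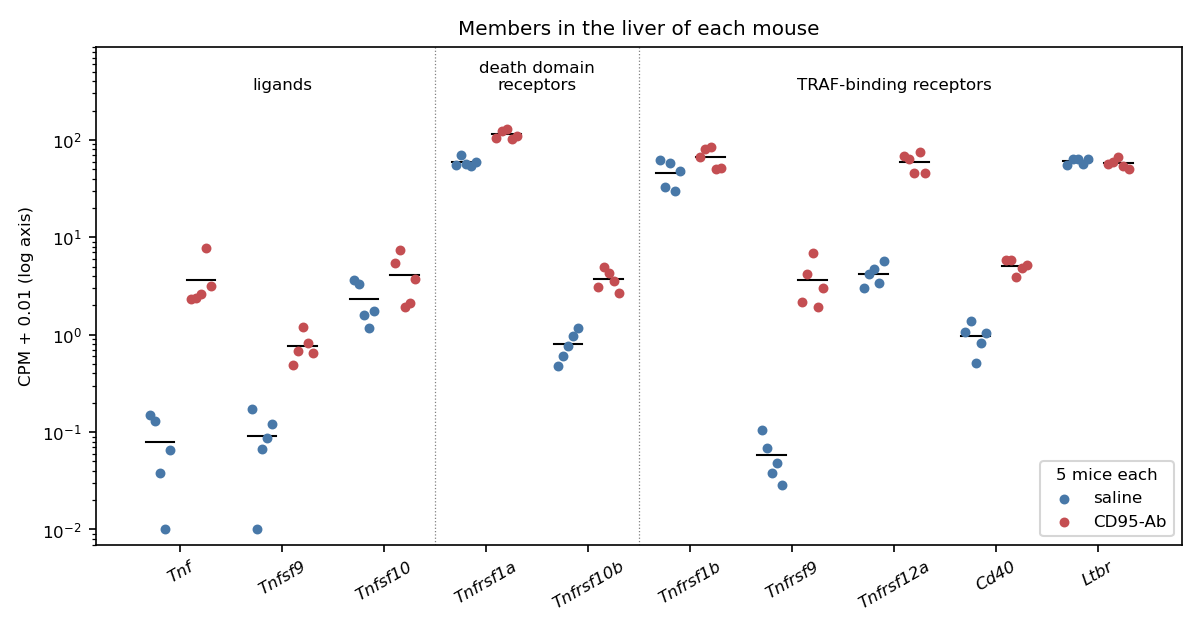
CPM of each member in the liver of each mouse on a log axis (0.01 CPM was added so that 0 can be drawn), ordered by role. Each point is 1 mouse and each line a group mean, 5 saline-injected (blue) and 5 CD95-Ab-injected mice (red). The point clouds are apart for 7 members and overlap for Tnfsf10, Tnfrsf1b and Ltbr.

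The sequence in front of 4 members is shown so that the starts of these genes can be compared. RefSeq (GRCm38.p6) gave windows of 250 bases upstream of the start for 7 of the 10 members, and 8 windows in all because Tnfrsf9 has a pair of starts. The 4 were picked for their values: Tnf and Tnfrsf9, which were nearly silent in saline-injected controls and had the largest fold changes, Tnfrsf12a, which was expressed in controls and rose by a large factor, and Ltbr, which was expressed and was not called. Capitals mark matches, on either strand, to 4 short motifs: the kB motif GGNNTTTCC, the AP-1 motif TGANTCA, the GC box GGGCGG and the TATA box TATAAA. The windows lie at chr17:35202008-35202257 (minus strand) for Tnf, chr4:150919905-150920154 and chr4:150927749-150927998 (plus strand) for Tnfrsf9, chr17:23677450-23677699 (minus strand) for Tnfrsf12a and chr6:125313886-125314135 (minus strand) for Ltbr, and each is printed 5′ to 3′ along its gene.
Tnf: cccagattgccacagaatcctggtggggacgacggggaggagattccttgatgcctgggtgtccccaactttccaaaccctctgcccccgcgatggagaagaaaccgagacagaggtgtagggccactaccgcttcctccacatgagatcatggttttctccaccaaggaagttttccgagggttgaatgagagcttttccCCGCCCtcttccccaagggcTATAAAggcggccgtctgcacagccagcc
Tnfrsf9, upstream start: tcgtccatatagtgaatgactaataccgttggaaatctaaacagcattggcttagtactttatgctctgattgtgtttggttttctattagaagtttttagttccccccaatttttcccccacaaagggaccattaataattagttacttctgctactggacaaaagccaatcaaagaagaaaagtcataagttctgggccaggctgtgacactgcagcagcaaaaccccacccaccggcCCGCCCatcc
Tnfrsf9, downstream start: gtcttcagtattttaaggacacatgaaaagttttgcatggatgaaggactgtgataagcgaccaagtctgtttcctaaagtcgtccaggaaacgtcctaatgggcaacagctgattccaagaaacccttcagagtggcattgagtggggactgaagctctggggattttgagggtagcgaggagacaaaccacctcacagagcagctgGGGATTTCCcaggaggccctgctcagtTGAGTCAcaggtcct
Tnfrsf12a: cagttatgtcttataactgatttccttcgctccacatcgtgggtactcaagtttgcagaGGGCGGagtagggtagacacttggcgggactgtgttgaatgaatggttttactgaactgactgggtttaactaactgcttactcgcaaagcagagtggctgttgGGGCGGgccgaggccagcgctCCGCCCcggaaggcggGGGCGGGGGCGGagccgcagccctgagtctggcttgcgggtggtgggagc
Ltbr: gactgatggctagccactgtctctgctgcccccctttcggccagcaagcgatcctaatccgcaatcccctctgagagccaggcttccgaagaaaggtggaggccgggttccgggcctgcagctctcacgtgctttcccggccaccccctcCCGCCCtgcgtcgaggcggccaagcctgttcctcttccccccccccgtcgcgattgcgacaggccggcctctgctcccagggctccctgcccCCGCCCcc

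The window of Tnf held a TATA box 29 bases before the start and a GC box 49 bases before it. The window at the downstream start of Tnfrsf9 held a kB motif 42 bases and an AP-1 motif 15 bases before the start, and the window at its upstream start held a GC box alone. Tnfrsf12a had 5 GC boxes, of which 2 follow each other directly, and Ltbr had 2. Over all 32851 RefSeq windows of this length, 4.93% held the kB motif, 6.75% the AP-1 motif, 32.7% the GC box and 12.4% the TATA box. Of the 8 windows of members, 1 held the kB motif, 1 the AP-1 motif, 1 the TATA box and 5 the GC box. A match describes letters in a window and shows no binding, and the counts, which are per gene, do not tell the starts of Tnfrsf9 apart.

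Tnf, the cytokine that gave the family its name, was close to the limit of detection in saline-injected controls. It was at 0.141, 0.119, 0.0282, 0 and 0.0556 CPM in the 5 saline-injected mice, which came from 14 counts in all. After CD95-Ab it was at 2.34, 2.39, 2.59, 7.75 and 3.16 CPM. All mice of the CD95-Ab group were far above the controls, and replicate 4 stood well above the other 4. The mean of Tnf was 0.0687 ± 0.0597 CPM in controls and 3.64 ± 2.32 CPM after CD95-Ab (SD, n = 5 each), and without replicate 4 the latter was 2.62 ± 0.38 CPM (SD, n = 4). The log2 fold change was 5.58 (SE 0.56), a 47.9-fold difference with a 95% interval of 20.4 to 112 (edgeR, FDR = 1.29e-05), and without replicate 4 it was 5.10. Since the controls held so few counts, the size depended on the prior count added by the fit, and with a prior count of 2 the log2 fold change was 4.84. The pooled level of Tnf in controls was 0.0730 CPM with an exact Poisson interval of 0.0399 to 0.123, which covers counting error only.

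Tnfsf9, also called 4-1BB ligand, is a costimulatory ligand of antigen-presenting cells. Its values in controls were 0.165, 0, 0.0563, 0.0769 and 0.111 CPM, from 17 counts. Livers of mice injected with CD95-Ab had 0.481, 0.668, 1.19, 0.807 and 0.642 CPM of Tnfsf9, from 115 counts. The groups did not overlap, but the level was low in all mice. Tnfsf9 overlaps Gm11110, a non-coding gene on the opposite strand, which had 0 counts in controls and 8 after CD95-Ab. Tnfsf9 rose by a log2 fold change of 3.07 (SE 0.49), or 8.40-fold with a 95% interval of 4.0 to 17.6 (edgeR, FDR = 3.54e-04).

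Tnfsf10, also called TRAIL, is the ligand of the death receptor Tnfrsf10b. Control livers had 3.67, 3.32, 1.58, 1.15 and 1.74 CPM, and livers after CD95-Ab had 5.42, 7.35, 1.91, 2.10 and 3.76 CPM. The groups overlapped, and the spread among mice injected with CD95-Ab was wide, with replicates 3 and 4 inside the range of the controls. The mean was 2.29 ± 1.12 CPM against 4.11 ± 2.30 CPM (SD, n = 5 each). The log2 fold change of 0.84 (SE 0.42) did not pass (edgeR, FDR = 0.118), and its 95% interval, from 0.95-fold to 3.37-fold, includes no difference as well as a clear rise.

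Tnfrsf1a, or TNFR1, is the broadly expressed death domain receptor of Tnf and was among the most abundant members. It was at 55.4, 69.5, 56.9, 53.4 and 59.6 CPM in controls and at 105, 125, 130, 103 and 109 CPM after CD95-Ab. The groups were clearly apart, and the spread within each was the smallest among the called members, with a coefficient of variation of 10.7% in controls and 10.6% after CD95-Ab. Tnfrsf1a rose by a log2 fold change of 0.96 (SE 0.12), or 1.94-fold with a 95% interval of 1.62 to 2.32 (edgeR, FDR = 5.69e-05), under the fold threshold.

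Tnfrsf10b, also called DR5, is the death domain receptor for TRAIL. It was at 0.470, 0.593, 0.760, 0.962 and 1.15 CPM in saline-injected mice. After CD95-Ab the values were 3.05, 5.0, 4.30, 3.55 and 2.68 CPM. The lowest mouse injected with CD95-Ab was above the highest control. Tnfrsf10b rose 4.69-fold, with a 95% interval of 3.08 to 7.12 (log2 fold change 2.23, SE 0.28; edgeR, FDR = 5.85e-05). Hence the receptor was called higher and its ligand Tnfsf10 was not, and their ratio was tested on its own.

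Tnfrsf1b, or TNFR2, binds Tnf as well but has no death domain and is found mainly on blood and endothelial cells. Its values were 62.4, 32.5, 57.4, 29.9 and 48.5 CPM in controls and 67.4, 81.3, 84.9, 50.5 and 51.2 CPM after CD95-Ab. Replicates 4 and 5 of the CD95-Ab group lay inside the range of the controls, so the groups overlapped. The log2 fold change of 0.54 (SE 0.23), or 1.45-fold with a 95% interval of 1.02 to 2.06, did not pass after adjustment (edgeR, FDR = 0.0755). Without saline replicate 1, which had the highest control value, it was 0.67 and passed (edgeR, FDR = 0.0417).

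Tnfrsf9, also called 4-1BB or CD137, is the receptor of Tnfsf9 and is best known as an activation marker of T and NK cells. It was at 0.0940, 0.0593, 0.0282, 0.0385 and 0.0185 CPM in controls, from 9 counts in 5 mice. It was at 2.18, 4.23, 6.88, 1.90 and 3.03 CPM after CD95-Ab. No control had more than 4 counts, and no mouse injected with CD95-Ab had fewer than 47. The log2 fold change was 6.16 (SE 0.52), or 71.7-fold with a 95% interval of 32.8 to 157 (edgeR, FDR = 3.42e-06), the largest among the members, and with a prior count of 2 it was 5.14. Tnfrsf9 overlaps Camta1 on the opposite strand, and counting by strand is not stated in the sources used here. Camta1 had 521 counts in controls and 456 after CD95-Ab, and its part in the counts of Tnfrsf9 was not tested.

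Tnfrsf12a, also called Fn14, is the receptor of the ligand Tnfsf12 (TWEAK) and is known to be induced in injured and regenerating liver. It was at 3.03, 4.18, 4.76, 3.42 and 5.67 CPM in controls. Its values after CD95-Ab were 67.8, 64.0, 46.2, 74.4 and 45.4 CPM, all of them far above the controls. Tnfrsf12a rose 14.1-fold, with a 95% interval of 10.1 to 19.5 (log2 fold change 3.82, SE 0.22; edgeR, FDR = 3.89e-07). It had the smallest FDR among the members, and in contrast to Tnf and Tnfrsf9 it was well above the limit of detection in every control.

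Cd40, the costimulatory receptor of B cells, macrophages and endothelial cells, was at 1.06, 1.36, 0.507, 0.808 and 1.04 CPM in controls. Livers of mice injected with CD95-Ab had 5.81, 5.82, 3.86, 4.84 and 5.16 CPM of Cd40. The groups did not overlap. The rise was 5.31-fold, with a 95% interval of 3.66 to 7.70 (log2 fold change 2.41, SE 0.25; edgeR, FDR = 1.40e-05).

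Ltbr, the receptor of the lymphotoxin heterotrimer and of Tnfsf14, was expressed about as highly as Tnfrsf1a in controls. It was at 55.4, 63.6, 63.3, 56.5 and 63.8 CPM in controls and at 56.7, 58.9, 66.9, 54.2 and 50.7 CPM after CD95-Ab, with the ranges overlapping almost entirely. Its log2 fold change was -0.07 (SE 0.11; edgeR, FDR = 0.595). The 95% interval, 0.807-fold to 1.12-fold, was the narrowest among the members on the log scale, so that a rise of the size seen for Tnfrsf1a lay outside it. Tnfrsf1a and Ltbr lie 35476 bp apart on chromosome 6, with Scnn1a between them, and of these neighbouring receptor genes only Tnfrsf1a was called higher, their difference having not been tested.

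The mouse with the highest or lowest value differed between members. Among mice injected with CD95-Ab, replicate 3 had the highest value for 5 members (Tnfsf9, Tnfrsf1a, Tnfrsf1b, Tnfrsf9 and Ltbr) and the lowest for 2 (Tnfsf10 and Cd40). Replicate 4 had the highest Tnf and Tnfrsf12a and the lowest Tnfrsf1a, Tnfrsf1b and Tnfrsf9. The receptors Tnfrsf1a, Tnfrsf1b and Tnfrsf9 thus shared both their highest and their lowest mouse. Replicate 2 was highest for 3 members and lowest for 0. Among controls, saline replicate 1 was highest for 5 members and lowest for 3, and saline replicate 4 was highest for 0 and lowest for 4. These ranks are a description and were not tested.

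Levels of different genes were compared with the deposited FPKM, which are scaled for length. In controls Ltbr and Tnfrsf1a led, at 30.9 ± 3.44 and 29.8 ± 5.45 FPKM (SD, n = 5), and their ranges overlapped, with Ltbr above Tnfrsf1a in 4 of 5 mice. Tnfrsf1b followed at 12.7 ± 4.42 FPKM and Tnfrsf12a at 4.75 ± 0.886 FPKM, each below its neighbour in every mouse and with no overlap. The other 6 members were below 1 FPKM in every control, in the order Tnfsf10 (0.494 FPKM), Cd40 (0.400), Tnfrsf10b (0.252), Tnfsf9 (0.0720), Tnf (0.05) and Tnfrsf9 (0.0380). Of the neighbours among these, only Tnfrsf10b and Tnfsf9 had ranges that did not overlap.

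After CD95-Ab the receptor of TWEAK stood first in place of Ltbr. Tnfrsf12a was at 64.3 ± 16.1 FPKM (SD, n = 5), above Tnfrsf1a at 53.8 ± 6.77 FPKM in 3 of 5 mice, and the ranges of the pair overlapped. Ltbr, at 27.8 ± 3.66 FPKM, was below Tnfrsf1a in every mouse and above Tnfrsf1b, at 17.5 ± 4.61 FPKM, in every mouse. Cd40 (2.88 FPKM), Tnf (2.16), Tnfrsf9 (1.81), Tnfrsf10b (1.16), Tnfsf10 (0.872) and Tnfsf9 (0.616) followed, each overlapping the next. Tnf and Tnfrsf9 thus moved from the last places of the order to its middle. Without CD95-Ab replicate 4, which had the high Tnf value, 8 of the 10 members kept their place in this order.

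The make-up of the members changed accordingly. Their summed FPKM was 79.4 ± 10.4 (SD, n = 5) in controls and 173 ± 23.8 (SD, n = 5) after CD95-Ab. Tnfrsf12a made up 6.04% of the sum in controls, from 4.46% to 7.76% per mouse, and 37.0% after CD95-Ab, from 28.5% to 44.7%. The share of Ltbr went from 39.0% to 16.1%, although its own level was not called different, and that of Tnfrsf1a from 37.4% to 31.3%. These shares are a description and were not tested.

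**Figure D2:**
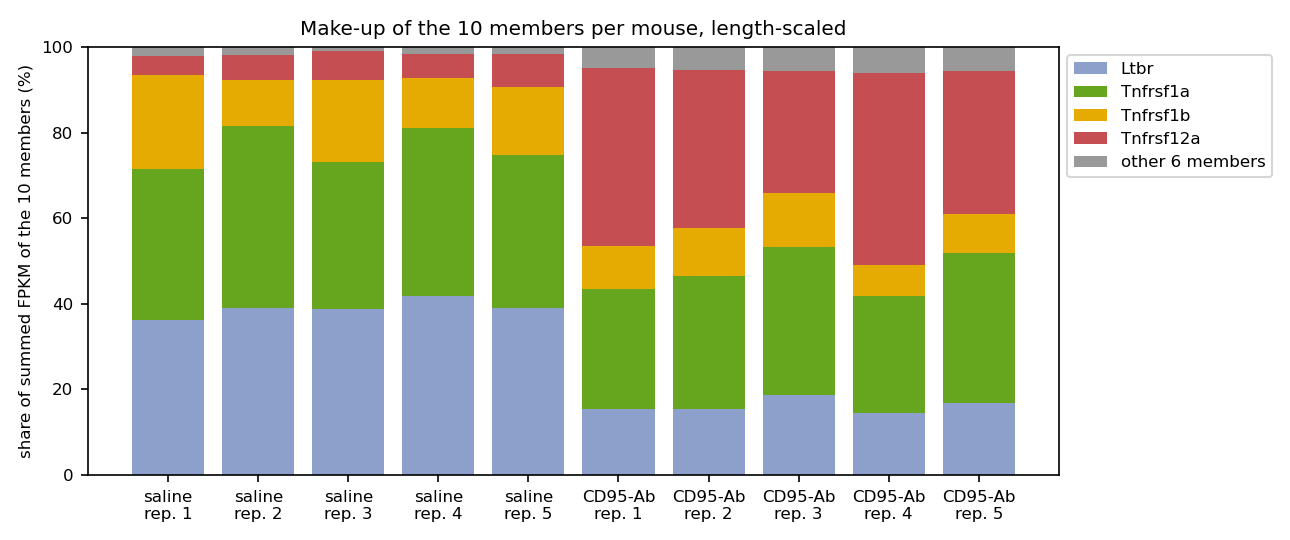
Share of each member in the summed FPKM of the 10 members (%), with 1 bar for each mouse, 5 saline-injected on the left and 5 CD95-Ab-injected on the right. Tnfrsf12a (red) took between 4.46% and 7.76% in controls and between 28.5% and 44.7% after CD95-Ab, and the 4 named receptors made up most of the sum in every mouse.

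A ligand and its receptor, or a pair of receptors of the same ligand, can be compared within a library without scaling between mice. Ratios were taken from CPM with 0.1 added, so that ratios of low values still depend on that scaling. For 4 pairs they were tested with an exact two-sided permutation test over 5 against 5 mice, which cannot give a p below 0.00794. Tnfrsf9 to its ligand Tnfsf9 had ratios of 0.733, 1.59, 0.820, 0.783 and 0.561 in controls and of 3.93, 5.64, 5.40, 2.20 and 4.22 after CD95-Ab. The receptor thus rose by more than its ligand, and the log2 ratio was 2.27 higher (exact permutation test, p = 0.00794, adjusted over the 4 pairs 0.0159). In controls both genes were close to the added 0.1 CPM, so the size of the difference depended on it. With 1 CPM added the log2 ratio was 1.36 higher, and with the deposited FPKM it was 1.58 higher.

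The ratio of Tnf to its receptor Tnfrsf1a also rose. It was 0.00434, 0.00314, 0.00225, 0.00187 and 0.00261 in controls and 0.0231, 0.0199, 0.0206, 0.0760 and 0.0300 after CD95-Ab, with no overlap. The difference in log2 ratio was 3.43 (exact permutation test, p = 0.00794, adjusted 0.0159). Tnf in controls was on average below the added 0.1 CPM, and the difference was 1.07 with 1 CPM added and 3.0 with the deposited FPKM. For the pair of receptors of Tnf, the ratio of Tnfrsf1b to Tnfrsf1a was 1.13, 0.469, 1.01, 0.561 and 0.815 in controls and 0.640, 0.653, 0.654, 0.490 and 0.471 after CD95-Ab. These values overlapped, and the difference in log2 ratio, -0.39, did not pass (exact permutation test, p = 0.183).

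Tnfsf10 to Tnfrsf10b had ratios of 6.61, 4.94, 1.95, 1.18 and 1.47 in controls and of 1.75, 1.46, 0.457, 0.602 and 1.39 after CD95-Ab. In CPM, which are not scaled for length, the ligand was above the receptor in every control but below it in CD95-Ab replicates 3 and 4. By the deposited FPKM, Tnfsf10 was below Tnfrsf10b in saline replicates 4 (0.23 against 0.31) and 5 (0.31 against 0.32). After CD95-Ab it was above Tnfrsf10b by FPKM in replicate 1 only (1.31 against 1.11). The difference in log2 ratio of -1.36 did not pass (exact permutation test, p = 0.0873, adjusted 0.116). Without saline replicate 4 it was -1.64 (exact permutation test, p = 0.0317, not adjusted over the pairs). With any other mouse left out, p was between 0.0635 and 0.175 in the same test.

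**Figure D3:**
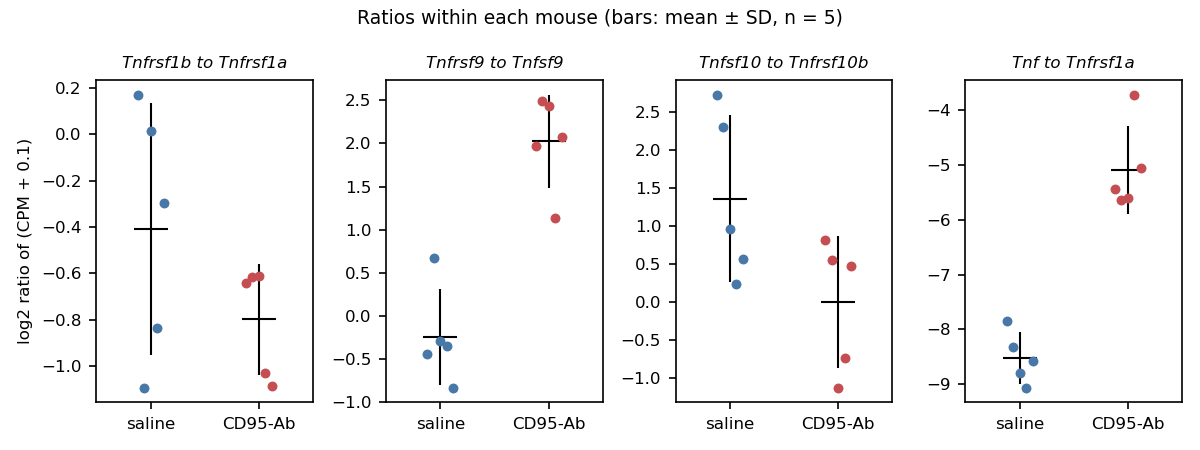
Log2 ratio of 4 pairs of members within each mouse, from CPM with 0.1 added, in saline-injected and CD95-Ab-injected mice (points: mice; bars: mean ± SD, n = 5 per group; each panel has its own axis). The groups are apart for Tnfrsf9 to Tnfsf9 and for Tnf to Tnfrsf1a, which were 2.27 and 3.43 higher after CD95-Ab (1.36 and 1.07 with 1 CPM added), and overlap for the other pairs.

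Of the 15 other ligands of the family, 5 had enough counts to be tested, Tnfsf14 only through its counts after CD95-Ab. Tnfsf14 (LIGHT), a ligand of Ltbr, was at 0.138 ± 0.0675 CPM in controls and at 1.15 ± 0.54 CPM after CD95-Ab (SD, n = 5 each; log2 fold change 2.97, SE 0.43; edgeR, FDR = 1.66e-04). Ltb, a chain of the lymphotoxin heterotrimer that binds Ltbr, rose from 0.30 ± 0.204 to 2.27 ± 0.67 CPM (SD, n = 5 each; log2 fold change 2.92, SE 0.43; edgeR, FDR = 1.85e-04). Hence a ligand and a ligand subunit of Ltbr were called higher while the receptor was not. Lta, which completes the heterotrimer, had 3 counts in controls and 13 after CD95-Ab and was not tested.

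Tnfsf12, the ligand of the strongly raised Tnfrsf12a, was at 9.47 ± 1.66 CPM in controls and at 8.76 ± 0.55 CPM after CD95-Ab (SD, n = 5 each), and was not called (log2 fold change -0.11, SE 0.13; edgeR, FDR = 0.522). Cd40lg, the ligand of Cd40, had 7 counts in all controls and 12 in all mice injected with CD95-Ab and was not tested. Fasl, the natural ligand of Fas, had between 3 and 7 counts per control and between 9 and 19 per mouse after CD95-Ab. It fell below the filter on low counts, and without that filter it was called higher (log2 fold change 1.80; edgeR, FDR = 0.00306). Eda, the ectodysplasin ligand of skin appendages, was the ligand called lower (log2 fold change -0.99, SE 0.33; edgeR, FDR = 0.0270), though its groups overlapped and it was not called lower without saline replicate 1, 2 or 3 or CD95-Ab replicate 2. Tnfsf15, singled out after its values were seen, had 0 counts in every control and 64 after CD95-Ab, with between 7 and 18 per mouse. Set against a floor of 3 counts over the control group, this was at least 25.9-fold higher.

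Tnf lies between Lta and Ltb on chromosome 17, at 1157 bp from Lta and 3060 bp from Ltb. Tnfsf9 lies in another cluster of ligands on the same chromosome, 38239 bp from Cd70 and 81734 bp from Tnfsf14. Tnf, Ltb, Tnfsf9 and Tnfsf14 were called higher, whereas Cd70 had 0 counts in all mice, so not all ligands of these clusters were detected.

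Among the 21 other receptors, 15 were tested, 11 were higher and 1 was lower (25.4% and 22.0% of all tested genes), with a median log2 fold change of 1.62. Tnfrsf11b, or osteoprotegerin, a secreted decoy receptor that binds RANKL and TRAIL, rose from 2.73 ± 0.929 to 21.5 ± 4.68 CPM (SD, n = 5 each; log2 fold change 2.98, SE 0.27; edgeR, FDR = 5.18e-06). Tnfrsf23 and Tnfrsf22, mouse decoy receptors for TRAIL, had log2 fold changes of 3.28 (SE 0.28) and 2.18 (SE 0.38), and their neighbour Tnfrsf26 was not called (log2 fold change 0.58, SE 0.34; edgeR, FDR = 0.186). These 3 genes are close copies in a row on chromosome 7, so the way in which RSEM shared out their reads makes their separate values uncertain. Thus Tnfrsf10b, Tnfrsf11b, Tnfrsf22 and Tnfrsf23, which can bind TRAIL, were called higher and TRAIL itself was not, a difference that was tested for Tnfrsf10b alone and did not pass.

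Fas, the receptor that the antibody engages, was at 13.5 ± 1.58 CPM in controls and at 34.9 ± 5.87 CPM after CD95-Ab (SD, n = 5 each), with no overlap (log2 fold change 1.37, SE 0.14; edgeR, FDR = 1.21e-05). Relt rose with a log2 fold change of 2.48 (SE 0.46). Tnfrsf14, which shares the ligand Tnfsf14 with Ltbr, had a log2 fold change of 1.0 (SE 0.48) and was not called (edgeR, FDR = 0.102). Tnfrsf19, an orphan receptor, was the receptor called lower, at 2.60 ± 0.552 CPM in controls and 1.27 ± 0.225 CPM after CD95-Ab (SD, n = 5 each; log2 fold change -1.03, SE 0.21; edgeR, FDR = 0.00184).

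**Figure D4:**
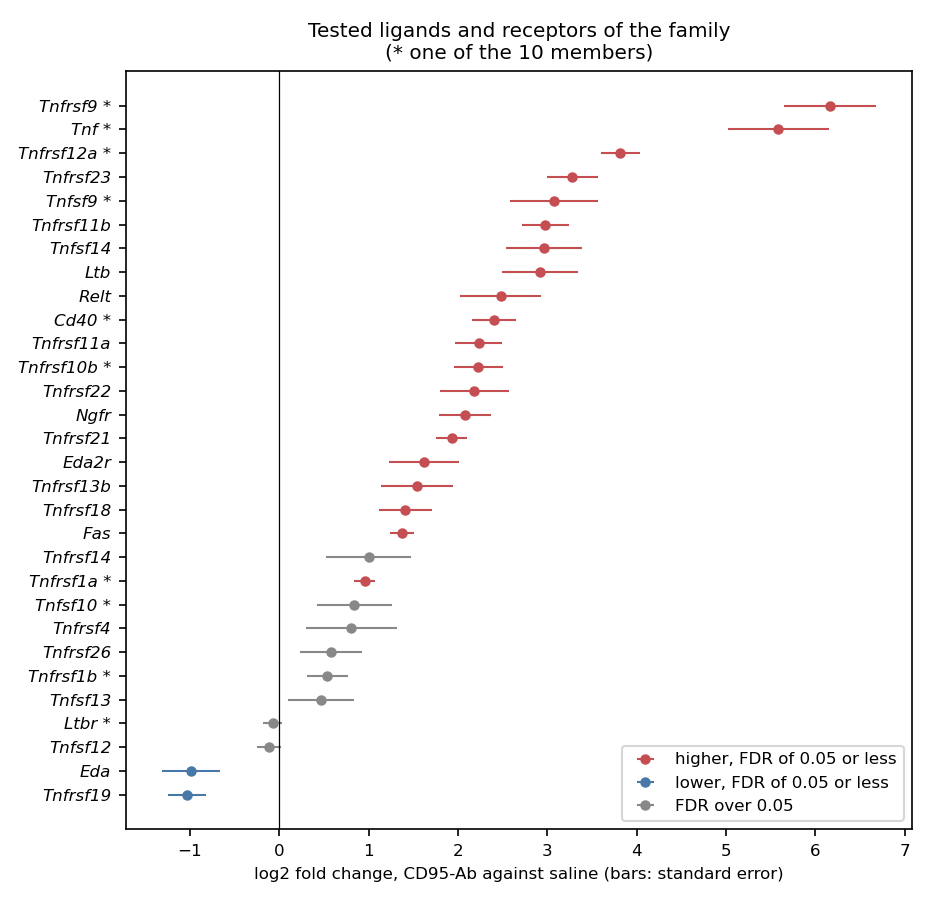
Log2 fold change (CD95-Ab against saline) with its standard error for the 30 tested ligands and receptors of the family. Members are marked with an asterisk, red marks genes called higher, blue those called lower and grey those not called. Tnfrsf9, Tnf and Tnfrsf12a have the 3 largest values, and Eda and Tnfrsf19 are the 2 genes called lower.

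Downstream of the receptors, all 25 genes of a list of adaptors, kinases and ubiquitin enzymes were tested, and 11 were higher, 2 were lower and 12 were not called (25.4% of all tested genes were higher and 22.0% lower), with a median log2 fold change of 0.25. Traf1, an adaptor that binds Tnfrsf9, Tnfrsf1b and Cd40, was at 0.400, 0.415, 0.141, 0.192 and 0.278 CPM in controls and at 2.82, 3.47, 3.38, 5.61 and 3.67 CPM after CD95-Ab (log2 fold change 3.70, SE 0.31; edgeR, FDR = 3.67e-06). The deubiquitinase gene Tnfaip3 (A20) had the largest log2 fold change of the list, 5.29 (SE 0.25), and the ubiquitin ligase gene Birc3 had 2.57 (SE 0.19).

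The genes called lower were Tradd and Fadd, adaptors that bind death domains. Tradd was at 7.59 ± 0.895 CPM in controls and 5.18 ± 1.14 CPM after CD95-Ab (SD, n = 5 each; log2 fold change -0.55, SE 0.17; edgeR, FDR = 0.0163), with overlapping groups. Fadd was at 6.77 ± 1.12 and 4.62 ± 0.438 CPM (SD, n = 5 each), and the groups did not overlap (log2 fold change -0.55, SE 0.15; edgeR, FDR = 0.00981). Ripk1, a kinase that binds Tradd, was higher by a small amount (log2 fold change 0.37, SE 0.11; edgeR, FDR = 0.0161), and was not called without the filter on low counts (edgeR, FDR = 0.0559). Casp8, the caspase recruited by Fadd, was not called (log2 fold change 0.25, SE 0.14; edgeR, FDR = 0.168).

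**Figure D5:**
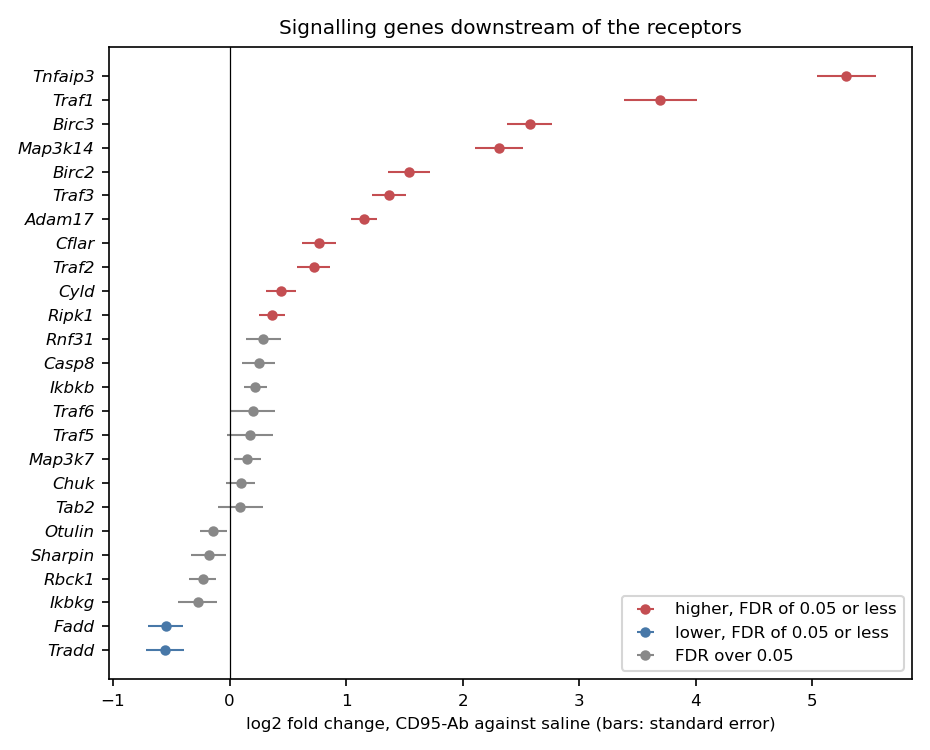
Log2 fold change (CD95-Ab against saline) with its standard error for the 25 signalling genes, coloured red where called higher, blue where called lower and grey where not called. Tnfaip3, at 5.29, and Traf1, at 3.70, lead, and Fadd and Tradd, at -0.55 each, are the genes called lower.

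Several members are known from blood and immune cells, and some markers of such cells differed between the groups. The counts of markers called higher stand beside 25.4% of all tested genes. All 7 tested of 8 neutrophil markers were higher, and their summed level went from between 4.19 and 10.6 CPM in controls to between 110 and 452 CPM after CD95-Ab. Of 9 T and NK cell markers 8 were tested and 6 were higher, with a sum of 1.55 to 4.91 CPM in controls and 7.04 to 8.66 CPM after CD95-Ab. Of 8 Kupffer cell and macrophage markers 3 were higher, with overlapping sums of 133 to 455 CPM and 278 to 594 CPM. All 5 B cell markers were tested and 4 were higher, with overlapping sums of 0.732 to 3.97 CPM and 2.63 to 15.0 CPM. Among endothelial markers 6 of 7 were higher, with sums of 54.5 to 121 CPM and 185 to 365 CPM, among stellate cell markers 4 of 6, with 117 to 162 CPM and 285 to 459 CPM, and among cholangiocyte markers 3 of 4 tested of 5, with 3.01 to 4.62 CPM and 23.8 to 99.5 CPM. No marker of these lists was at 0 counts in all mice. The part of these cells in the rise of Tnf, Tnfsf9, Tnfrsf9, Cd40 and the other members was not tested, and in RNA of whole liver more cells of a type and more RNA per cell cannot be told apart.

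Blood and the RNA fraction differed between the groups as well. The 5 erythroid markers were all higher, with sums between 135 and 323 CPM in controls and between 1063 and 33971 CPM after CD95-Ab. A list of 6 RNAs that carry no poly(A) tail, of which Rn7sk and Rpph1 were tested and higher and Rny1 and Rny3 were at 0 in all mice, summed to between 0.297 and 0.885 CPM in controls and to between 357 and 1305 CPM after CD95-Ab. Both sums were apart between the groups in all mice, so these differences cannot be told apart from the injection. Their part in the values of the members was not tested.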

How the data were processed

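Liver RNA of 10 mice was analysed, grouped by the sample labels as 5 saline and 5 CD95-Ab replicates. The authors sequenced TruSeq libraries and assigned reads to genes with RSEM version 1.2.19, per the labels and the methods. The deposited expected counts carry no normalization and held whole numbers only, hence they entered the test unrounded. The deposited FPKM were made by RSEM, which divides by transcript length and library total. RSEM shares out reads that fit several genes, which affects paralogs and overlapping genes. The methods name a human annotation although the identifiers are mouse, and the mouse release and build are not given in the sources used here. Of 38922 identifiers, 37606 had a symbol in GENCODE mouse release 21.

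Genes were kept by filterByExpr (minimum count 10), scaled with TMM factors and tested by quasi-likelihood in edgeR 4.0.16 (R 4.3.3, prior count 0.125, group as the only term, Benjamini-Hochberg over all 13719 tested genes). The thresholds were an FDR of 0.05 and, for some counts, a log2 fold change of 2. SE is the log2 fold change divided by the root of the F statistic, and 95% intervals use its t quantile. FPKM served for levels between genes. Ratios were tested in Python 3.11.15 with scipy 1.17.1. Alternatives were DESeq2 1.42.0, limma 3.58.1 (on counts, and on log2 of FPKM with 0.1 added), other filters, scalings and prior counts, a block for the replicate number, and leaving out each mouse. The code was tested on simulated counts. No pair of replicates of a group agreed within sampling noise: chi-square per degree of freedom was 39.4 to 515 over 20 pairs. The p-values set the difference between the groups against the spread between these mice.

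The members, the lists and the tests were chosen with earlier results of these data known. All 10 members are named, as are partners of members, Fas, Fasl and the 3 largest changes in each direction of each list. Protein sequences and promoter windows of Tnfsf9, Tnfrsf10b and Cd40 were not used here.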

Additional observations from a re-analysis of the deposited data

Results flagged for a closer look

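Values of 68 groups of 5 mice were examined for a mouse far from the others by Dixon's criterion, which chance meets in about 1 of 20 groups, and 2 groups met it. The Tnf level of CD95-Ab replicate 4 was 7.75 CPM, and the nearest of the other mice was at 3.16 CPM. The gap took up 0.848 of the range of the group. The Tnf level rose without this mouse as well, with a log2 fold change of 5.10. This mouse stood apart on the second principal component, and among mice injected with CD95-Ab it had the highest summed B cell markers, 15.0 CPM, the second highest erythroid sum, 20651 CPM, and the highest sum of RNAs without a poly(A) tail, 1305 CPM against 807 CPM in the next mouse. Its sum of Kupffer cell and macrophage markers was the lowest of that group, 278 CPM. The part of these in its Tnf level was not tested.

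The Lta level of CD95-Ab replicate 3 was 0.239 CPM against 0.0807 CPM in the nearest mouse, a gap of 0.730 of the range. It rests on 6 counts against 2, near the limit of detection, and Lta was not tested between the groups.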

How the results depend on the processing

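The calls of Tnfrsf1a, Tnfrsf10b, Tnfrsf12a and Cd40 held under all 20 alternatives, and those of Tnf, Tnfsf9 and Tnfrsf9 under the 19 in which they were tested. Requiring at least 10 counts in every mouse removed these last 3 from the test, which left 4 members higher and 3 past both thresholds, 0 other ligands higher and 0 lower, and 5 other receptors higher. Under this requirement 2962 of 12120 tested genes were higher and 2668 lower. With no filter on low counts, 6 other ligands were higher, beside 3780 of 23118 tested genes. With limma-voom 0 other ligands were lower. With each mouse left out in turn, the filter kept between 13845 and 14000 genes. Of these, 3142 to 3581 were higher and 2474 to 3396 lower. In the same fits 7 to 8 members were higher, 2 to 4 other ligands were higher and 0 to 1 lower. It was 4 other ligands without saline replicate 1, 2, 3, 4 or 5 and without CD95-Ab replicate 4. The log2 fold change of Tnfrsf1b was between 0.39 and 0.67 with a mouse left out, and the log2 ratio of Tnfsf10 to Tnfrsf10b between -1.64 and -1.02. Without saline replicate 5 and CD95-Ab replicate 4, an alternative chosen after seeing the data, 4 other ligands were higher. In limma on log2 FPKM, 5 members passed both thresholds, without Tnfrsf10b (1.83), and the log2 fold changes of Tnf, Tnfrsf9 and Tnfsf9 were 3.86, 3.67 and 2.10, since the added 0.1 draws low values together. Over all alternatives 9 to 12 signalling genes were higher, with 9 under scaling by total counts and in limma on log2 FPKM, and 2 to 3 were lower. Scaling by total counts moved the median of all genes by -0.08, and no member changed direction.

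Pairing of the mice by replicate number was not apparent, though 5 correlations are too few to exclude it. The correlation of same-numbered mice was 0.26, 0.09, 0.13, -0.02 and -0.27, and 2 of 5 correlated best with their own number. With the replicate block 9 members were higher, as Tnfsf10 (0.80, FDR = 0.0132) and Tnfrsf1b (0.56, FDR = 0.0463) passed in edgeR, and 0 other ligands were lower. In that fit 3310 of 13719 tested genes were higher and 2677 lower. The paired exact sign-flip test left the log2 ratios of Tnfrsf9 to Tnfsf9 (2.27) and of Tnf to Tnfrsf1a (3.43) at p = 0.0625, the smallest it can give. Depth limited Tnf, Tnfsf9 and Tnfrsf9 in controls, where 3 counts were 0.0483 to 0.116 CPM.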
